A study of Homo sapiens with 13 samples.

Results

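The 10 genes described here encode the core of the BCL2 family: the prosurvival members BCL2, BCL2L1, BCL2L2 and MCL1, the effectors BAX and BAK1, and the BH3-only members BCL2L11, BBC3, PMAIP1 and BID. They were taken by symbol from the tables of 2 cell lines, each of which lists 56831 genes, and all 10 were found in both. H82 and H146 are established lines of small cell lung cancer (SCLC), grown without drug (3 libraries of each line) or treated with FHD-286, 100 nM for 14 days (3 libraries of H82 and 4 of H146). FHD-286 is an allosteric inhibitor of the ATPases SMARCA4 and SMARCA2, the motors of the SWI/SNF chromatin remodelling complex, and the study asked what these enzymes do for the neuroendocrine state of SCLC. The labels name no other agent and no engineered allele in either arm. RNA was sequenced in bulk and is given in TPM, a unit in which the reads of a gene are divided by its length and every library has an equal total. Sequencing depth cannot be read from TPM, so no counting error is given, and in bulk RNA fewer cells of a type and less RNA per cell cannot be told apart. The labels do not say whether libraries came from separate cultures, so p-values measure only the spread between these libraries.

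BCL2 family proteins set the threshold of the mitochondrial pathway of cell death. BAX and BAK1 form pores in the outer mitochondrial membrane, prosurvival members hold them and the BH3-only proteins in check, and BH3-only proteins, many of them induced by stress, bind the groove of the prosurvival members or activate the effectors directly. Neuroendocrine SCLC is known for high BCL2, and inhibitors that copy the BH3 helix have been studied in it.

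The BH3 motif is a part that all 10 proteins share, so its coding sequence is shown for each member. Each line gives 30 bases of the coding strand (hg38, transcripts of GENCODE release 44), with the 6 codons of the motif in capitals and 2 codons on each side in lower case. The motif was searched as leucine or methionine, then arginine, lysine or alanine, any 2 residues, glycine or alanine, and aspartate. Exactly 1 match was found in each of the 10 coding sequences.
BCL2, chr18:63318355-63318384, minus strand, exon 2: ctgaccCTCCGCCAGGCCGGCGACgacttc
BCL2L1, chr20:31721928-31721957, minus strand, exon 2: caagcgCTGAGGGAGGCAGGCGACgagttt
BCL2L2, chr14:23307897-23307926, plus strand, exon 3: caagccATGCGGGCAGCTGGAGATgagttc
MCL1, chr1:150578871-150578900, minus strand, exon 1: gagaccTTACGACGGGTTGGGGATggcgtg
BAX, chr19:48955781-48955810, plus strand, exon 3: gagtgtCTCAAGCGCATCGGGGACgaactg
BAK1, chr6:33575393-33575422, minus strand, exon 4: cggcagCTCGCCATCATCGGGGACgacatc
BCL2L11, chr2:111150097-111150126, plus strand, exon 3: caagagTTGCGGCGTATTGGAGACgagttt
BBC3, chr19:47226585-47226614, minus strand, exon 3: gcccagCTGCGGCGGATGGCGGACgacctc
PMAIP1, chr18:59902667-59902696, plus strand, exon 2: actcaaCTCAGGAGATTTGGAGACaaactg
BID, chr22:17739421-17739450, minus strand, exon 4: aggcacCTCGCCCAGGTCGGGGACagcatg

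Of the 18 bases in capitals, 4 were identical in all 10 genes, and the motif ended in GAC or GAT in every one. Both were fixed by the search, because all codons of the required residues share those bases, so they are no finding about these genes. The 4 fixed bases count in every pair below. Over the 45 pairs of members the number of identical bases ran from 5 to 14 with a median of 10. The pair with the fewest was BCL2L2 and BAK1, and the pairs with the most were BCL2 with BID and BAK1 with BID. BCL2 shared 13 of its 18 bases with BCL2L1, a prosurvival member like itself, and 14 with BID, a BH3-only gene.

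Some libraries stood apart, and results that rest on them are given with and without them. The fits without a library that are printed for single genes were picked with the values seen. Their adjusted p-values are a description and no separate support for a change. In H82 treated replicate 2, genes that are high in H146 were raised: of 218 genes under 1 TPM in the other H82 libraries and at 10 TPM or more in every H146 library, 103 reached 1 TPM there, against 1 to 13 of 116 to 128 such genes in the 5 other H82 libraries. The epithelial adhesion gene EPCAM stood at 32.8 TPM in that library and at 0.837 to 3.08 TPM in the other H82 libraries, and the endoderm factor FOXA2 at 35.7 TPM against 0 to 2.62. In H82 treated replicate 1, DDIT3, a transcription factor of the unfolded protein response, stood at 432 TPM, against 9.56 to 23.3 TPM in the other H82 libraries. MT-RNR2, the mitochondrial 16S ribosomal RNA, split the treated libraries: in H146 it stood at 14960 and 27678 TPM in replicates 1 and 2 and at 2108 and 1387 TPM in replicates 3 and 4, with 24037 to 31867 TPM in the untreated libraries. In treated H82 it stood at 27083 TPM in replicate 1 and at 10257 and 9251 TPM in replicates 2 and 3, with 33908 to 36248 TPM without drug. Fits on treated libraries split by MT-RNR2 were added after these values were seen.

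As a check of the cells, 5 of 5 neuroendocrine markers (SYP, CHGA, NCAM1, INSM1, NEUROD1) reached 1 TPM in every H82 library and 4 of 5 in every H146 library, where NEUROD1 stayed under 1 TPM. Their summed level was 610 to 660 TPM in untreated and 178 to 577 TPM in treated H82, and 1377 to 1679 and 983 to 1244 TPM in H146. These sums mix opposite moves. In H82 SYP, CHGA and NEUROD1 were lower in every treated library and NCAM1 overlapped. INSM1 was higher in every one, at 12.5 to 15.8 TPM without and 32.1 to 296 TPM with drug, highest in replicate 2. In H146 most of the sum was INSM1, at 1140 to 1405 TPM without and 758 to 1018 TPM with drug, while SYP, CHGA and NCAM1 overlapped. The 9 epithelial and endoderm markers summed to 1.63 to 4.24 TPM in untreated and 508 to 621 TPM in treated H82, and to 2816 to 2990 and 944 to 1154 TPM in H146. Most of the treated H82 sum was ALB (310 to 515 TPM) and APOA1 (48.3 to 105 TPM), genes of plasma proteins made in liver, while CDH1 stayed at or under 0.404 TPM and AFP at or under 0.128 TPM. The 8 markers of stroma, endothelium and blood summed to at most 38.0 TPM in any library. The part of these marker shifts in the values below was not tested.

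Without drug the family had a different make-up in each line. In H82 the 2 most abundant transcripts were prosurvival, MCL1 at 185 ± 12.0 TPM and BCL2L2 at 174 ± 0.374 TPM (SD, n = 3 each), whose libraries overlapped. In H146 the 2 most abundant were BH3-only genes, PMAIP1 at 728 ± 104 TPM and BBC3 at 203 ± 30.1 TPM (n = 3 each). PMAIP1 did not overlap with BBC3, but the libraries of BBC3 (181 to 237 TPM) overlapped with those of BAX (136 to 186 TPM), so that the second place was not separated. The summed BH3-only level was 887 to 1056 TPM in the untreated H146 libraries and 127 to 135 TPM in those of H82. The ratio of summed BH3-only to summed prosurvival TPM was 3.47 to 3.85 in untreated H146 and 0.320 to 0.331 in untreated H82. These levels come from tables normalized separately and are given as a description, with no test. With drug the ratio was 2.01, 2.74, 1.06 and 1.12 in H146 replicates 1 to 4, all below the untreated libraries. In H82 it was 0.571, 0.472 and 0.317, so that replicate 3 lay just below the untreated range and the others above it.

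**Figure D1:**
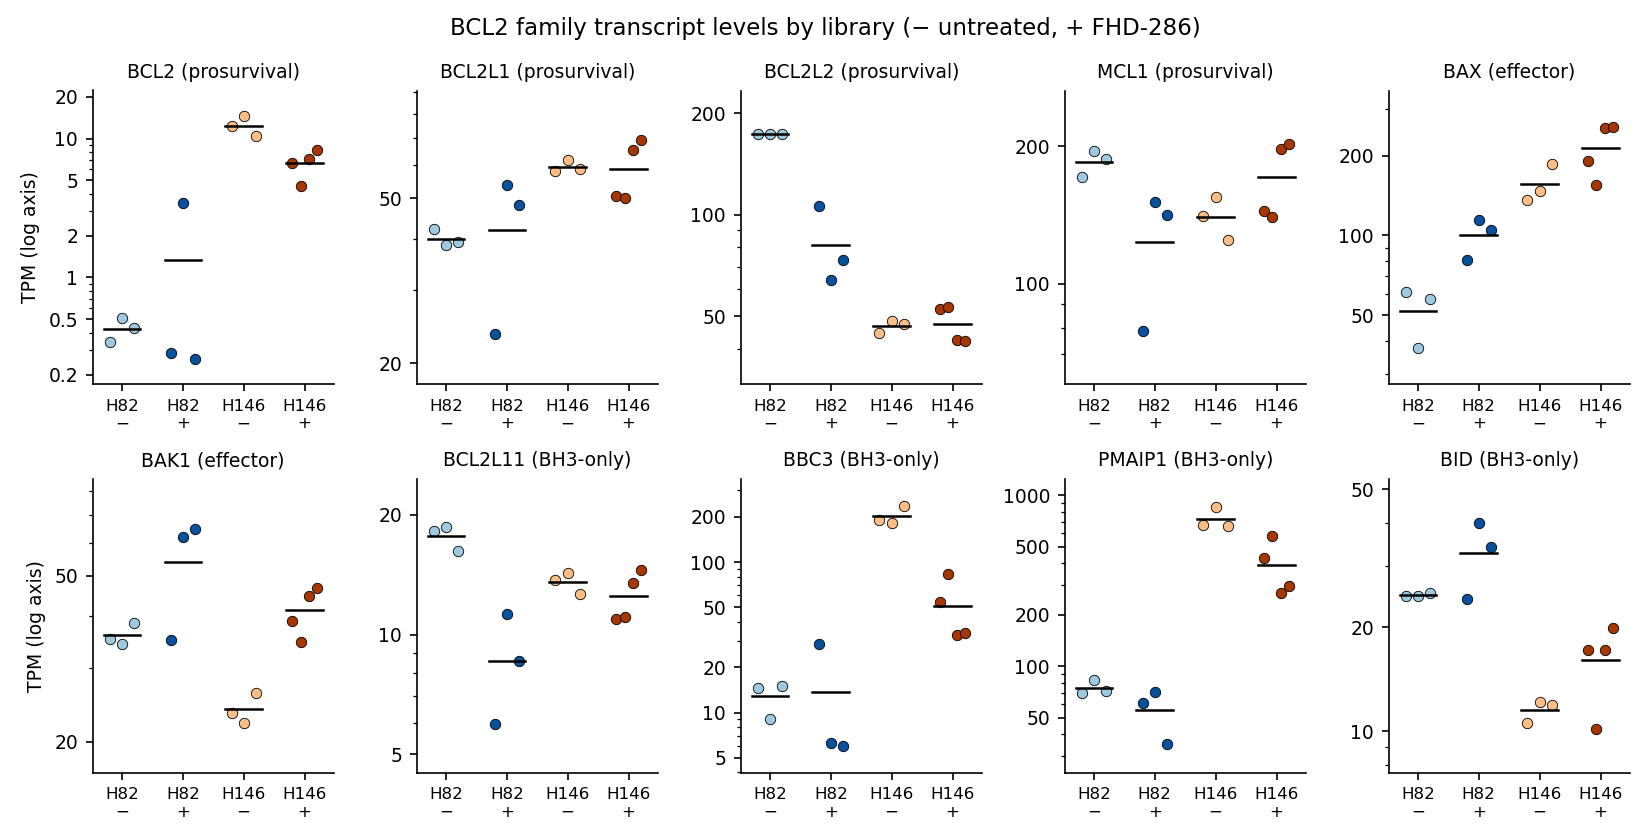
TPM of the 10 genes on log axes, 1 panel a gene, in H82 and H146 without (−) and with (+) FHD-286; points are libraries in the order of their replicate numbers and the bar is the group mean. BBC3 fell from 181 to 237 TPM to 32.6 to 83.2 TPM in H146, BCL2L2 from 173 to 174 TPM to 63.9 to 106 TPM in H82, and BCL2 in H82 was above 1 TPM in 1 treated library.

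Before the single genes, the shift of the whole tables has to be known. The log2 fold changes are on log2(TPM + 1), treated minus untreated, tested with limma and adjusted over all genes tested. Over the 19770 genes tested in H82, 45.5% were lower and 13.1% higher with drug, and the median log2 fold change was -0.56. Over the 19585 genes tested in H146, 15.5% were lower and 32.5% higher, and the median was 0.25. Scaling the libraries by the median of ratios brought the medians to -0.14 and -0.02, with 32.9% of genes lower and 24.2% higher in H82 and 25.1% and 21.3% in H146. A change relative to the median of all genes is therefore given where it alters the picture. In H82, 21227 to 21772 genes reached 1 TPM without drug and 15554 to 16633 with it. Mitochondrial genes held 22.1% to 24.1% of the TPM there without drug and 12.3% to 14.9% with it. In H146, 17476 to 17965 genes reached 1 TPM without and 18778 to 19309 with drug. The part of these differences in the changes of genes at low levels was not tested.

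Of the 10 members, 9 passed the filter in H82 (at least 1 TPM in 3 libraries), where 2 were lower and 1 higher, and all 10 passed in H146, where 3 were lower and 1 higher. Against the background shares these counts set the members apart in neither line. With the median of ratios, 1 was lower and 3 higher in H82, and 5 were lower and 1 higher in H146. With quantile normalization, 2 were lower and 3 higher in H82 (28.1% and 25.6% of all genes), and 4 lower and 1 higher in H146 (21% and 23.7%). Without H82 treated replicate 1 the counts were 4 and 4, where 50.4% of all genes were lower and 19.3% higher. Without H82 treated replicate 2 they were 3 and 1 (41.4% and 10.5% of all genes), and without H146 untreated replicate 2 they were 1 and 1 (12.1% and 25.9%). With the treated H146 libraries of high MT-RNR2 alone they were 3 and 1 (15.2% and 27.7%), and with those of low MT-RNR2 alone 3 and 4 (21.7% and 43.1%). Treated libraries lay wholly below untreated ones for 3 members and above for 1 in H82, where 51.4% and 16.4% of all genes did so, and likewise for 3 and 1 members in H146, where 17.3% and 35.7% did.

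**Figure D2:**
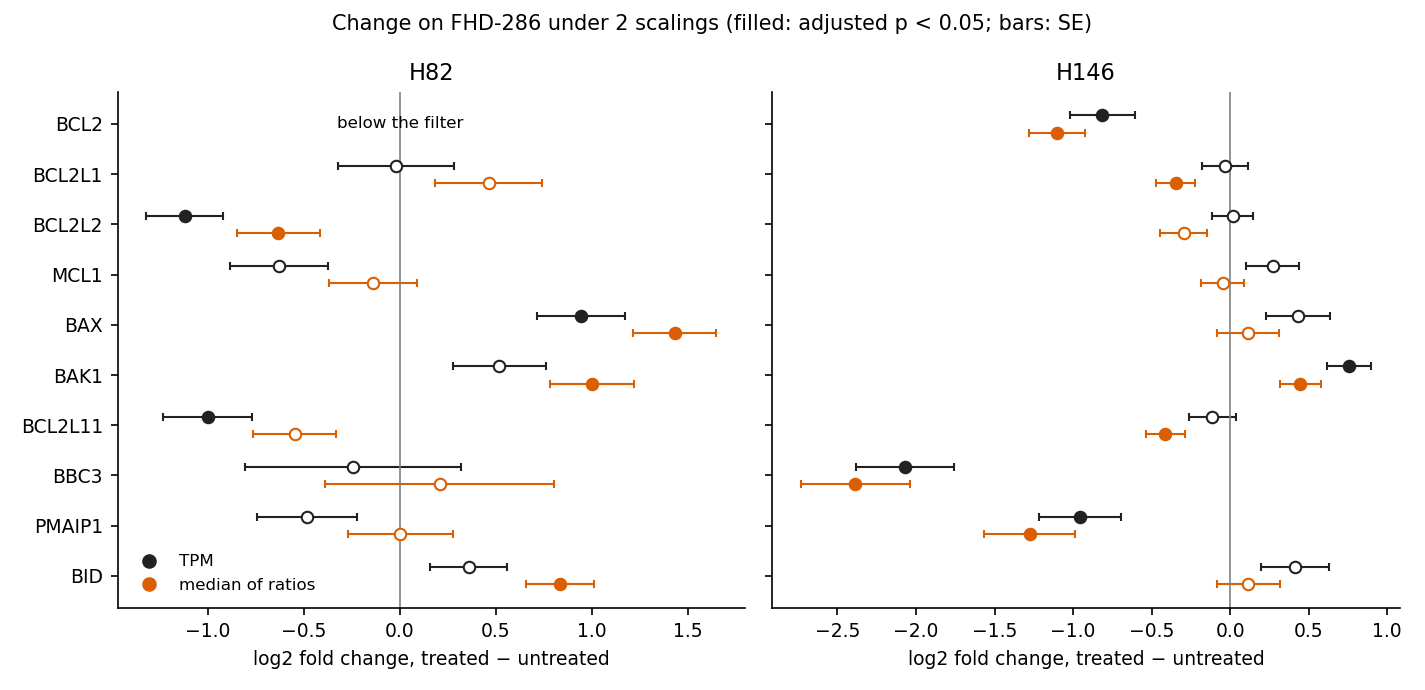
Log2 fold change of each gene with its SE, treated minus untreated, in H82 (left) and H146 (right), for the TPM as deposited (black) and after scaling by the median of ratios (orange); filled points passed an adjusted p of 0.05. BCL2L2 in H82 and BBC3, PMAIP1 and BCL2 in H146 were lower, and BAX in H82 and BAK1 in H146 higher, under both scalings, while BCL2L11 in H82 passed only as deposited.

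BCL2, the founding prosurvival gene and the target of venetoclax (chr18:63123346-63320128, minus strand), was almost silent in H82 and modest in H146. In H82 it stood at 0.342, 0.507 and 0.435 TPM without drug and at 0.284, 3.44 and 0.260 TPM with it. Only treated replicate 2, the library with H146-high genes, was above 1 TPM, and the other treated libraries lay below all untreated ones. The difference of 0.44 on log2(TPM + 1) had an exact permutation p of 1 (two-sided, the smallest possible being 0.1), and without replicate 2 it was -0.17 (exact p = 0.2). In H146 it stood at 12.2, 14.5 and 10.4 TPM without drug and at 6.72, 4.59, 7.17 and 8.26 TPM with it, with no overlap. The log2 fold change was -0.81 ± 0.21 (SE; limma adjusted p = 0.012). This call was lost without untreated replicate 2 (-0.70, adjusted p = 0.055).

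BCL2L1, which encodes BCL-XL (chr20:31664452-31723989, minus strand), stood at 38.5 to 61.8 TPM in the untreated libraries of both lines. With drug it stood at 23.5, 53.9 and 48.2 TPM in H82, on both sides of the untreated range of 38.5 to 42.2 TPM. In H146 it was 50.8, 50.2, 65.4 and 69.0 TPM against 58.2 to 61.8 TPM, again on both sides. The log2 fold change was -0.02 (95% interval -0.73 to 0.70) in H82 and -0.03 (-0.36 to 0.30) in H146, neither past the threshold. With the median of ratios it was 0.46 in H82, not past it, and -0.35 in H146, past it. In both lines the treated libraries of high MT-RNR2 were the low ones, and their part was not tested. The exons of BCL2L1 share 41.3% of their bases with ABALON on the opposite strand, and whether the counting used strand is not stated in the sources used here, so its level is uncertain.

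BCL2L2, which encodes BCL-W (chr14:23298790-23311751, plus strand), gave the most even untreated values of the family in H82, 173, 173 and 174 TPM. With drug it stood at 106, 63.9 and 73.5 TPM, all below. The log2 fold change was -1.12 ± 0.20 (limma adjusted p = 0.0030), which was -0.56 relative to the median of all genes, and it passed under the median of ratios too (-0.63, adjusted p = 0.042). In H146 it stood at 44.4 to 48.3 TPM without and 42.1 to 53.2 TPM with drug (log2 fold change 0.02, 95% interval -0.28 to 0.31). Its exons share 16.8% of their bases with the readthrough gene BCL2L2-PABPN1 on the same strand, which was listed at 9.91 to 14.1 TPM in untreated and 0.807 to 1.31 TPM in treated H82. The readthrough gene was thus far below BCL2L2 and lower with drug as well, and how reads were split between the genes is not known.

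MCL1, a short-lived prosurvival protein that binds PMAIP1 (chr1:150560895-150579738, minus strand), stood at 172, 195 and 187 TPM in untreated and 78.9, 151 and 141 TPM in treated H82. The groups did not overlap, but the spread of the treated libraries was wide and the log2 fold change of -0.63 ± 0.26 did not pass (adjusted p = 0.070). Without treated replicate 1, the lowest library, it was -0.34 (adjusted p = 0.011), and quantile normalization also gave a lower call (-0.83, adjusted p = 0.0044). It was -0.07 relative to the median of all genes. In H146 it stood at 141, 155 and 124 TPM without drug and at 144, 140, 197 and 202 TPM with it (0.27 ± 0.17, not past). Replicates 3 and 4, of low MT-RNR2, were above every untreated library, and replicates 1 and 2 lay within the untreated range. The low pair alone, a split added after seeing the data, gave 0.51 (limma adjusted p = 0.0047). In that setting 43.1% of all genes were called higher.

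The prosurvival transcripts can be set side by side because TPM is per length. MCL1 made up 46.3% ± 1.84 (SD, n = 3) of their sum in untreated H82 and BCL2L2 43.6% ± 1.10, followed by BCL2L1 at 10.0% ± 0.766 and BCL2 at 0.107% ± 0.0180. With drug the share of BCL2L1 was 11.3%, 19.8% and 18.3% and that of BCL2L2 50.8%, 23.5% and 27.9% in replicates 1 to 3, and that of MCL1 37.8%, 55.4% and 53.7%. The share of BCL2L1 was thus above the untreated range in all 3, while BCL2L2 was above and MCL1 below it in replicate 1 and the reverse in replicates 2 and 3. In H146 the untreated shares were MCL1 54.0% ± 2.09, BCL2L1 23.1% ± 1.18, BCL2L2 18.1% ± 1.34 and BCL2 4.77% ± 0.435 (n = 3). With drug they were 59.8% ± 3.71, 20.7% ± 0.672, 17.2% ± 4.47 and 2.34% ± 0.361 (n = 4). The share of BCL2 was lower in every treated H146 library (1.85% to 2.65%) than in any untreated one (4.33% to 5.20%). These shares are a description, with no test.

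**Figure D3:**
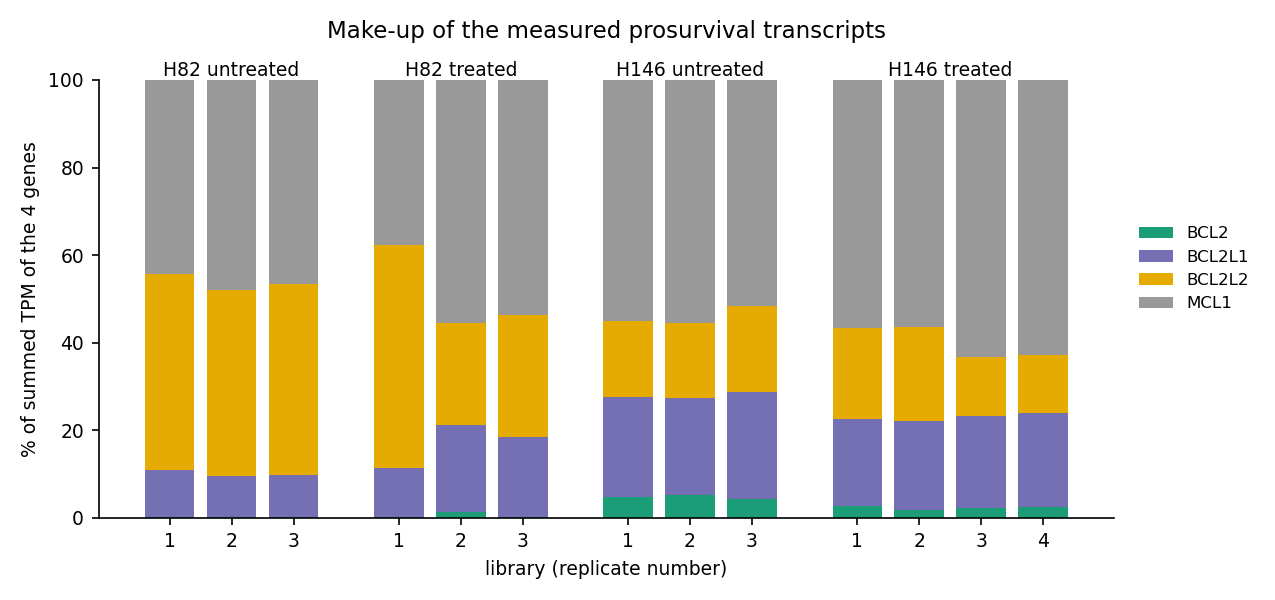
Share of the summed TPM of BCL2, BCL2L1, BCL2L2 and MCL1 in each library, as stacked bars that add to 100%, by line, treatment and replicate number. BCL2 was 4.33% to 5.20% of the sum in untreated and 1.85% to 2.65% in treated H146, and BCL2L2 was 42.5% to 44.7% in untreated H82 and 23.5%, 27.9% and 50.8% with drug.

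The effectors were called higher in 1 line each as deposited, BAX in H82 and BAK1 in H146. For both genes the point estimate was positive in both lines. The difference between the lines, H146 minus H82, did not pass for BAX (-0.51, limma adjusted p = 0.19) or BAK1 (0.24, adjusted p = 0.48). With the median of ratios it passed for BAX (-1.32, adjusted p = 0.0028). BAX (chr19:48954815-48961798, plus strand) stood at 61.0, 37.7 and 57.4 TPM in untreated and 80.7, 115 and 105 TPM in treated H82, without overlap. The log2 fold change was 0.95 ± 0.23 (limma adjusted p = 0.010), or 1.5 relative to the median of all genes. In H146 it was 136, 147 and 186 TPM against 191, 155, 254 and 256 TPM, which overlapped (0.43 ± 0.20, adjusted p = 0.11). Without H146 treated replicate 2, the lowest treated library, it passed (0.58, adjusted p = 0.017), where 38.6% of all genes were called higher.

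BAK1 (chr6:33572547-33580293, minus strand) stood at 35.3, 34.4 and 38.5 TPM in untreated and 35.1, 61.9 and 64.7 TPM in treated H82. Treated replicate 1 lay within the untreated range and the others above it, and the log2 fold change of 0.52 ± 0.24 did not pass (adjusted p = 0.11). Without replicate 1 it was 0.80 (adjusted p = 0.00060), and with the median of ratios 1.0 (adjusted p = 0.0075). In H146 all 4 treated libraries, at 39.0, 34.8, 44.8 and 46.8 TPM, were above the untreated ones at 23.4, 22.2 and 26.2 TPM. The log2 fold change there was 0.76 ± 0.14 (adjusted p = 0.0030), or 0.51 relative to the median of all genes.

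BBC3, which encodes PUMA, a BH3-only protein that binds every prosurvival member (chr19:47220822-47232766, minus strand), showed the largest fall of the 10 members. In H146 it stood at 191, 181 and 237 TPM without drug and at 54.7, 83.2, 32.6 and 33.5 TPM with it, far apart. The means were 203 and 51.0 TPM, a 3.98-fold difference, and the log2 fold change was -2.07 ± 0.31 (limma adjusted p = 0.0011). The fall passed with the treated libraries of high MT-RNR2 alone (-1.57, adjusted p = 0.0015) and with those of low MT-RNR2 alone (-2.57, adjusted p = 9.2e-06). In H82 it stood at 14.5, 9.05 and 15.0 TPM without drug and at 28.6, 6.28 and 5.98 TPM with it. Replicate 1 was above and replicates 2 and 3 below every untreated library, and the log2 fold change of -0.24 ± 0.56 did not pass (adjusted p = 0.73). Without replicate 1 it was -0.93 (adjusted p = 0.014). Replicate 1 against the untreated libraries differed by 1.13, a value of 1 treated library, given with no test.

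DDIT3 and ATF4, stress-response factors known to act on BH3-only genes, were looked at in the treated library of highest BBC3 in each line. They were picked with the values seen, and the levels are given as a description. In H82 treated replicate 1, the library of high BBC3, ATF4 stood at 1433 TPM and DDIT3 at 432 TPM, while replicates 2 and 3 had 436 and 423 TPM of ATF4 and 17.1 and 9.56 TPM of DDIT3. JUN was also high in replicate 1 (248 TPM, against 49.3 and 36.9 TPM), while E2F1 and TP73 were highest in replicate 2. The BH3-only gene PMAIP1 was not raised in replicate 1, at 60.6 TPM against 70.1 to 82.5 TPM without drug. In H146 it was highest of the treated libraries in replicate 2 (575 TPM). In H146 treated replicate 2, with the highest treated BBC3, DDIT3 stood at 264 TPM against 27.6 to 42.9 TPM in the other treated libraries and 380 to 453 TPM without drug. DDIT3, ATF4, MT-RNR2 and BBC3 thus came out high in the same treated library of each line, and the part of each was not tested.

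**Figure D4:**
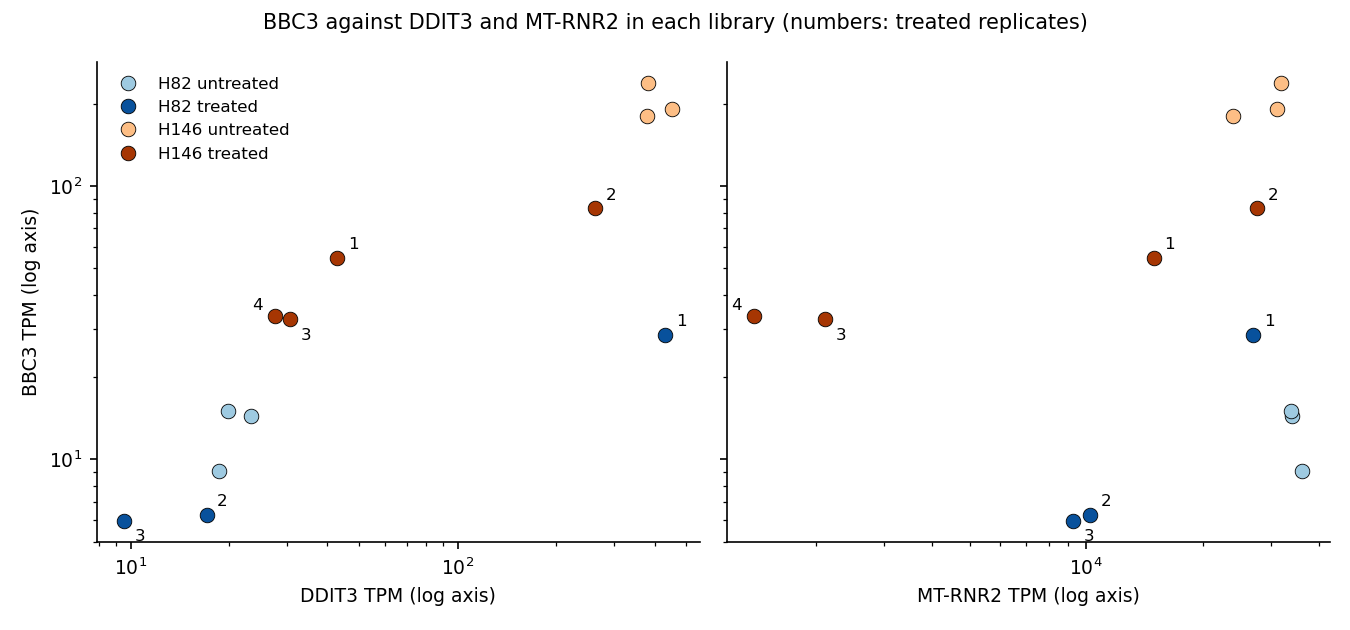
BBC3 TPM against DDIT3 TPM (left) and MT-RNR2 TPM (right), both on log axes, 1 point a library, with treated replicates numbered. H82 treated replicate 1 (BBC3 28.6 TPM, DDIT3 432 TPM) lies apart from replicates 2 and 3 (BBC3 6.28 and 5.98 TPM), and H146 treated replicate 2 (BBC3 83.2 TPM, DDIT3 264 TPM) lies nearest the untreated H146 libraries.

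PMAIP1, which encodes NOXA, a BH3-only protein that targets MCL1 (chr18:59899996-59904305, plus strand), was the most abundant member in H146. It stood there at 671, 849 and 664 TPM without drug and at 428, 575, 267 and 293 TPM with it, and the groups did not overlap. The log2 fold change was -0.96 ± 0.26 (limma adjusted p = 0.017), lost without untreated replicate 2 (-0.84, adjusted p = 0.067). It was -0.54 (adjusted p = 0.045) with the treated libraries of high and -1.37 (adjusted p = 9.9e-05) with those of low MT-RNR2. In H82 it stood at 70.1, 82.5 and 71.7 TPM without and 60.6, 70.7 and 34.9 TPM with drug, which overlapped (-0.48 ± 0.26, adjusted p = 0.15).

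BCL2L11, which encodes BIM, an activator of BAX and BAK1 (chr2:111119378-111168444, plus strand), stood at 18.2, 18.6 and 16.3 TPM in untreated and 5.94, 11.3 and 8.56 TPM in treated H82. All treated libraries were below, the means differed 2.06-fold, and the log2 fold change was -1.0 ± 0.23 (limma adjusted p = 0.0089). It was -0.44 relative to the median of all genes, and the call was lost with the median of ratios (-0.55, adjusted p = 0.067) and with quantile normalization (-0.46, adjusted p = 0.10). In H146 it was 12.7 to 14.3 TPM without and 10.9 to 14.6 TPM with drug (-0.11 ± 0.15, adjusted p = 0.55). The median of ratios gave -0.41 there, past the threshold. Its exons share 10.8% of their bases with MIR4435-2HG on the opposite strand.

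BID, whose protein links death receptors to the mitochondrion once caspase 8 has cut it (chr22:17734138-17774770, minus strand), stood at 24.6, 24.6 and 25.1 TPM in untreated and 24.1, 40.0 and 34.1 TPM in treated H82. Replicate 1 lay just below and the others above the untreated libraries (0.36 ± 0.20, adjusted p = 0.16), and without replicate 1 the difference passed (0.56, adjusted p = 0.0037), as it did with the median of ratios (0.84, adjusted p = 0.0067). In H146 it was 10.6, 12.1 and 11.9 TPM against 17.2, 10.2, 17.2 and 19.9 TPM (0.41 ± 0.22, adjusted p = 0.15). Replicate 2 was below all untreated libraries. Without that library, picked for its low value, the difference was 0.61 (limma adjusted p = 0.0048), where 38.6% of all genes were called higher.

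The change differed between the lines for 4 of 10 members, tested as an interaction of line and treatment in limma, where 60.2% of all 23676 genes tested passed. The median over all genes was 0.73, H146 minus H82. The difference was -1.83 (adjusted p = 0.034) for BBC3, 0.88 (0.012) for BCL2L11, 1.14 (0.0011) for BCL2L2 and 0.90 (0.026) for MCL1. The last 3 lay near the median of all genes and were lost with the median of ratios (0.14, 0.33 and 0.09), under which 57.5% of genes passed. With quantile normalization, where the median over all genes was 0.04 and 52.4% of genes passed, BCL2L2 (1.16, adjusted p = 0.0063) and MCL1 (1.06, adjusted p = 0.0012) passed and BCL2L11 (0.09, adjusted p = 0.76) did not. With the median of ratios 6 members passed: BBC3 (-2.60), BCL2 (-1.72), BAX (-1.32), PMAIP1 (-1.28), BCL2L1 (-0.81) and BID (-0.72). BBC3 alone passed as deposited and with both the median of ratios and quantile normalization (-2.57, adjusted p = 0.0087), and as deposited it was lost on leaving out any of 5 libraries and with no filter (adjusted p = 0.062), with a range of adjusted p = 0.053 to 0.081 without H82 untreated replicate 2, H146 untreated replicate 1 or 3, or H146 treated replicate 3 or 4.

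The promoters of BBC3 and PMAIP1 are shown as those of the BH3-only members called lower in H146 as deposited. BCL2 was called lower there too, and its promoter is not printed. RefSeq (GRCh38.p14) gave promoters, 250 bases before to 50 after a start, for 8 of the 10 genes, and none was matched for BCL2L2 and MCL1. In the PMAIP1 promoter (chr18:59899746-59900045, plus strand) capitals mark GGGCGG and TGACGT on either strand. In that of BBC3 (chr19:47232618-47232917, minus strand) they mark CACGTG, which reads the same on both strands.
PMAIP1: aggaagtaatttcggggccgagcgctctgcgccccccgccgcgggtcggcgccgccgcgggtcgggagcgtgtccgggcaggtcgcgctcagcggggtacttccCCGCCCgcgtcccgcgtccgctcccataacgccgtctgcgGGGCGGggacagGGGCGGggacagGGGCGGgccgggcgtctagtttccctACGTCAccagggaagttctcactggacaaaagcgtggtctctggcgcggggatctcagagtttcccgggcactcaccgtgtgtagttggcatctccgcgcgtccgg
BBC3: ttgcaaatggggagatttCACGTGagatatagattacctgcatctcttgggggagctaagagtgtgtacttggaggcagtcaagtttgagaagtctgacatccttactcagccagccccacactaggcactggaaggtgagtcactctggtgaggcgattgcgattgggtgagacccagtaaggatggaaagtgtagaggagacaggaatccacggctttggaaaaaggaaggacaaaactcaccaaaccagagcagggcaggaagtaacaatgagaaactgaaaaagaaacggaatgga

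PMAIP1 held 4 copies of GGGCGG and 1 of TGACGT, with 71.3% G and C and 42 CpG dinucleotides. BBC3 held 1 CACGTG, with 48.0% G and C and 5 CpG. BAX held 4 copies of CACGTG. Among the 8 members GGGCGG was found in 6, CACGTG in 3 and TGACGT in 1, a gene being counted if any of its promoters held the motif. BID and BCL2L1 each had more than 1 promoter. These counts are per gene and the shares below per promoter, so the 2 are not on the same scale. The promoter of BCL2, which also fell in H146, held none of the motifs searched. Of all 35116 RefSeq promoters, 45.0% held GGGCGG, 7.98% TGACGT and 7.26% CACGTG. A link between the motifs and the changes with drug was not tested. Searches on both strands for TGATGCAA (0.866% of all promoters) and CAGCTG (17.9%) found no copy in the 8 members. No 2 of the motifs overlapped in the promoters printed.

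The family around the members was followed in lists. Of 55 pathway genes, 44 were tested in H82, with 17 lower and 9 higher, and 48 in H146, with 8 lower and 16 higher. The counts of these lists are to be read against the shares of all genes tested, 45.5% lower and 13.1% higher in H82 and 15.5% and 32.5% in H146. Under median-of-ratios scaling these counts were 13 and 15 in H82 and 12 and 13 in H146. Their median log2 fold change was -0.21 in H82 and 0.27 in H146, beside -0.56 and 0.25 for all genes tested.

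The further prosurvival genes BCL2A1 and BCL2L10 were scarce. BCL2A1 stood at or under 0.985 TPM in every library, and BCL2L10 at 3.88 to 5.38 TPM in untreated and 1.86 to 5.24 TPM in treated H146 (not past) and at or under 1.02 TPM in H82. BOK, a pore former related to BAX, fell from 3.73 to 5.87 TPM to 0.894 to 1.76 TPM in H82 (log2 fold change -1.42 ± 0.25, adjusted p = 0.0028), a call lost with quantile normalization. In H146 it was 32.2 to 35.5 TPM without and 24.8 to 44.9 TPM with drug (0.16 ± 0.21, not past).

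Of the 4 other BH3-only genes, 3 were tested in H82 and all 4 in H146, with 1 called lower in each line and none called higher. BIK, which acts on the endoplasmic reticulum as well as on mitochondria, stood at 30.8, 30.8 and 27.8 TPM in untreated and 3.57, 0.894, 2.14 and 4.10 TPM in treated H146. The means differed 11.1-fold and the log2 fold change was -3.16 ± 0.32 (adjusted p = 0.00018), a point estimate below that of any member. In H82 BIK stood at 0.544 to 2.36 TPM without and 0.728 to 1.003 TPM with drug (-0.41 ± 0.32, not past), and the difference between the lines was -2.76 (adjusted p = 0.00043). BMF, which is tied to the cytoskeleton, fell in H82 from 11.3 to 12.1 TPM to 4.85 to 6.32 TPM (-0.90 ± 0.17, adjusted p = 0.0040), a call lost with quantile normalization. In H146 BMF was 22.3 and 26.8 TPM in treated replicates 1 and 2 and 12.2 and 10.6 TPM in 3 and 4, around the untreated 14.3 to 17.3 TPM. BAD, whose product is held inactive by phosphorylation, was above the untreated libraries in all 4 treated H146 libraries (9.41 to 17.8 against 7.25 to 9.27 TPM; 0.66 ± 0.25, adjusted p = 0.057) and overlapped in H82 (-0.10 ± 0.27). HRK, a neuronal BH3-only gene, was 4.54 to 7.62 TPM with and 5.74 to 8.55 TPM without drug in H146 (-0.26 ± 0.22, not past). In H82 it was below the filter, at 0.252 to 0.777 TPM without and 0.819 to 2.70 TPM with drug (exact permutation p = 0.1, the smallest possible).

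Among 7 further BCL2-related genes, 2 fell and 1 rose in H82 and 2 rose in H146. BCL2L12, a BCL2-like gene with a C-terminal BH2-like motif, rose in both lines, from 9.13 to 14.3 TPM to 89.0 to 102 TPM in H82 (7.65-fold between means; log2 fold change 2.86 ± 0.19, adjusted p = 0.00013) and from 18 to 21.3 TPM to 50.7 to 69.6 TPM in H146 (3.13-fold; 1.59 ± 0.15, adjusted p = 0.00011). No member rose as far. BNIP3L, a receptor of mitophagy, fell in H82 from 116 to 153 TPM to 50.2 to 82.4 TPM (-1.05 ± 0.22, adjusted p = 0.0053), a call lost with the median of ratios (-0.56, adjusted p = 0.056).

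Downstream of the pore, 12 genes of mitochondrial release, apoptosome and caspases were tested in both lines, with 2 lower and 6 higher in H82 and 4 higher and none lower in H146 (2 lower and 9 higher in H82 and 3 lower and 3 higher in H146 with the median of ratios). ENDOG, a mitochondrial nuclease, rose in H82 from 7.30 to 7.69 TPM to 36.7 to 108 TPM (2.81 ± 0.37, adjusted p = 0.00085), and DIABLO, which relieves caspases of their inhibitors, fell from 1.91 to 3.0 TPM to 0.265 to 0.348 TPM (-1.37 ± 0.20, adjusted p = 0.0012), a call lost with quantile normalization. APAF1, the scaffold of the apoptosome, rose in H146 from 6.01 to 8.32 TPM to 17.6 to 21.8 TPM (1.37 ± 0.15, adjusted p = 0.00026). Both APAF1 and DIABLO went the opposite way in the other line. In H82 APAF1 fell (-1.21 ± 0.18, adjusted p = 0.0015), and in H146 DIABLO rose (0.92 ± 0.19, adjusted p = 0.0050). The difference between the lines was 2.58 for APAF1 (limma adjusted p = 2.7e-06) and 2.29 for DIABLO (1.4e-05), where 60.2% of all genes passed.

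**Figure D5:**
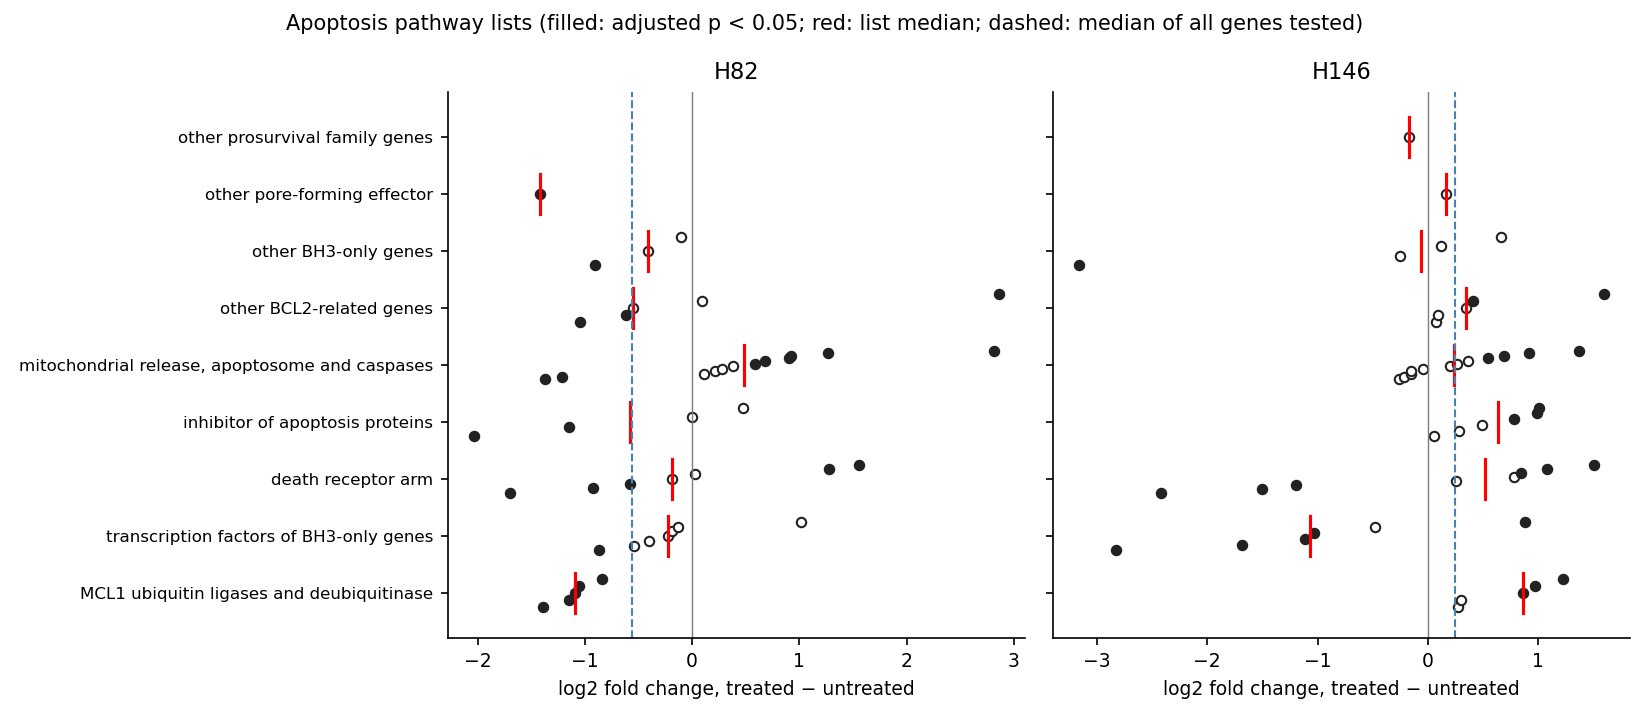
Log2 fold change, treated minus untreated, of each tested gene of the pathway lists in H82 (left) and H146 (right); filled points passed an adjusted p of 0.05, red bars are list medians and the dashed line is the median of all genes tested (-0.56 and 0.25). All 5 genes of MCL1 turnover were lower in H82, where 45.5% of all genes were. With the median of ratios 4 of them remained lower, and with quantile normalization 3. In H146 4 of 6 tested transcription factors were lower, where 15.5% of all genes were.

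Of 7 inhibitors of apoptosis proteins, 4 were tested in H82, with 2 lower, and 6 in H146, with 3 higher. BIRC6, a giant ubiquitin ligase, fell in H82 from 46.2 to 55.1 TPM to 7.85 to 15.5 TPM (-2.03 ± 0.24, adjusted p = 0.00061), and BIRC2, which encodes cIAP1, rose in H146 from 18.3 to 21.7 TPM to 37.4 to 46.5 TPM (1.0 ± 0.13, adjusted p = 0.00048). In the death receptor arm 3 of 7 tested genes were lower and 2 higher in H82, and 3 of 8 lower and 3 higher in H146. CASP8, which cuts BID, fell in H82 from 2.30 to 3.54 TPM to 0.0766 to 0.264 TPM (-1.69 ± 0.20, adjusted p = 0.00064), while its adaptor FADD rose from 3.52 to 5.73 TPM to 12.2 to 17.8 TPM (1.56 ± 0.23, adjusted p = 0.0015). In H146 the receptor TNFRSF1A fell from 35.7 to 40.0 TPM to 5.55 to 7.10 TPM (-2.42 ± 0.13, adjusted p = 9.2e-06), and its adaptor TRADD rose from 5.38 to 7.82 TPM to 10.5 to 28.4 TPM (1.51 ± 0.32, adjusted p = 0.0057).

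Of the transcription factors known to drive BH3-only genes, 7 were tested in H82, with 1 lower, and 6 in H146, with 4 lower and 1 higher (all genes: 45.5% lower in H82, 15.5% lower and 32.5% higher in H146). In H146 DDIT3 fell from 380 to 453 TPM to 27.6 to 264 TPM (-2.83 ± 0.69, adjusted p = 0.010). The others that fell there were ATF4 (-1.03), JUN (-1.68) and E2F1 (-1.11), named after their values were seen. FOXO3, a driver of BCL2L11 and BBC3, went opposite ways, from 53.4 to 55.5 TPM to 27.7 to 32.2 TPM in H82 (-0.87, adjusted p = 0.0014) and from 11.6 to 18.5 TPM to 25.4 to 35.6 TPM in H146 (0.87, adjusted p = 0.0060), a difference of 1.74 (adjusted p = 5.7e-05).

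The turnover of MCL1 protein is set by ubiquitin ligases and a deubiquitinase. All 5 genes listed, the ligases HUWE1, FBXW7, BTRC and TRIM17 and the deubiquitinase USP9X, were lower in H82, where 45.5% of all genes were, and 4 of them remained so with the median of ratios and 3 with quantile normalization. In H146, where 32.5% of all genes were higher, 3 were higher (2 with quantile normalization) and none lower, with FBXW7 at 0.30 (adjusted p = 0.25) and USP9X at 0.27 (adjusted p = 0.21). HUWE1 fell in H82 from 151 to 161 TPM to 39.1 to 79.7 TPM (-1.39 ± 0.26, adjusted p = 0.0034), and BTRC rose in H146 from 7.92 to 11.4 TPM to 17.4 to 29.7 TPM (1.23 ± 0.21, adjusted p = 0.0020). Their median log2 fold change was -1.09 in H82 and 0.86 in H146, on a background median of -0.56 and 0.25.

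The genes most like a member over the 13 libraries are given as a description, since the libraries fall into 2 lines and the likeness is mostly that between the lines. For BCL2 these were DDC, MRAP2 and EPCAM (Pearson r of log2(TPM + 1) 0.992, 0.985 and 0.984 over 13 libraries, among 15679 genes). DDC, which encodes the decarboxylase of dopamine and serotonin synthesis, stood at 48.7 TPM in H82 treated replicate 2 and at 3.62 to 6.14 TPM in the other H82 libraries, the same library in which BCL2 was raised. For BCL2L11 they were TLK2, AZIN1 and SGPL1 (0.979, 0.973 and 0.962), and for PMAIP1 HECA, RASSF5 and KIAA1456 (0.992, 0.991 and 0.990).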

How the data were processed

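RNA-seq of 13 libraries of H82 and H146 cells was analysed. The authors trimmed reads (Trim Galore 0.4.4 is named in the submitters' processing notes), used STAR and a GENCODE annotation for mapping (hg38) and gene counting, compared groups with DESeq2, and deposited 1 table of TPM per line. The deposited TPM values sum to 1000000 in each library, with no further scaling between libraries; how gene length was taken is not stated in the sources used here. No column was left unmapped. From these values, each line was fitted in R 4.3.3 with limma 3.58.1 (eBayes with trend, two-sided, Benjamini-Hochberg) on log2(TPM + 1) for genes with at least 1 TPM in 3 libraries. A single gene below this was compared by an exact permutation test over libraries. The interaction was fitted over all 13 libraries. Alternatives were median-of-ratios scaling, quantile normalization, TPM without mitochondrial genes, a pseudocount of 0.1, no filter, the replicate number as a block and each library left out. The pipeline was tested on simulated data. Members and lists were chosen with earlier results of these data known. Named pathway genes were the largest rise and fall past the threshold in each list and line, and all further prosurvival, BOK-type and BH3-only genes. The lists of markers were written from general knowledge. Coordinates and exon overlaps are of GENCODE release 44 (hg38), the promoters of RefSeq. The paper names an earlier GENCODE release for counting, and the overlaps in that release were not checked. Python 3.11.15 with pandas 2.3.3 and matplotlib 3.10.9 prepared tables and plots. Results for some genes are not reported here.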

Additional observations from a re-analysis of the deposited data

Results flagged for a closer look

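In the 4 treated H146 libraries, the gap between the extreme library and its neighbour, as a share of the range, passed the 95% critical value of Dixon's test for BIRC6 (0.843), BOK (0.944) and DDIT3 (0.936). In each the library apart was treated replicate 2: BIRC6 was 16.5 TPM there against 12.2 to 12.9 TPM, BOK 24.8 against 43.8 to 44.9 TPM and DDIT3 264 against 27.6 to 42.9 TPM. Chance flags about 1 in 20 groups, 36 groups were examined, and none of the 10 members passed.

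The effect of FHD-286 differed between the lines, by the interaction of line and treatment in limma, for BBC3 (-1.83, H146 minus H82, log2), BCL2L11 (0.88), BCL2L2 (1.14) and MCL1 (0.90). The median over all genes was 0.73, and with the median of ratios BBC3 alone of the 4 passed. With quantile normalization, where that median was 0.04, BBC3 (-2.57), BCL2L2 (1.16) and MCL1 (1.06) passed.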

How the results depend on the processing

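In H82, 8996 genes were lower and 2588 higher as deposited, while the median of ratios gave 4793 higher and quantile normalization 5547 lower and 5067 higher; in H146 the median of ratios gave 4917 lower and 4165 higher against 3033 and 6356. Members called became 1 lower and 3 higher in H82 with the median of ratios, 3 higher after quantile normalization, and 5 lower in H146 with the median of ratios. Pathway genes in H82 became 13 lower and 15 higher with the median of ratios and 9 lower with quantile normalization, against 17 and 9 as deposited. The share of BCL2 among prosurvival TPM in untreated H82 was 0.0518% and that of BCL2L1 8.47% with quantile normalization. The cause of these shifts was not tested.

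With each library left out in turn, members called ranged from 2 to 4 lower and 1 to 4 higher in H82, both highs without treated replicate 1, and from 1 (without untreated replicate 2) to 3 lower and 1 to 3 (without treated replicate 2) higher in H146. Without H146 treated replicate 2, 38.6% of all genes were called higher. Members whose change differed between the lines ranged from 2 (without H82 untreated replicate 2 or H146 untreated replicate 3) to 5. The difference of BCL2 in H82 ranged from -0.17 to 0.74. In settings added after seeing the data, the treated library of high MT-RNR2 alone gave 4 members lower in H82, and the treated libraries of low MT-RNR2 alone 4 higher in H146, where 43.1% of all genes were. The former rests on 1 treated library, which is assumed to vary like the untreated ones, and 46.2% of all genes were lower there.

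Among pathway genes called as deposited, CFLAR (-0.93) and TNFRSF1A (-0.58) in H82 turned, to 0.096 and 0.13 with quantile normalization, neither past the threshold. The other log2 fold changes within a line that turned were of genes not past the threshold as deposited. With the median of ratios, H82 gave BCL2L1 0.46, BBC3 0.21, PMAIP1 0.0025 and BAD 0.31, and H146 BCL2L2 -0.30, MCL1 -0.048, BOK -0.15 and BMF -0.18. Quantile normalization gave BCL2L1 0.19, BBC3 0.45, BAD 0.77 and BIK 0.49 in H82, and BCL2L2 -0.12 and BMF -0.11 in H146. Without mitochondrial genes BCL2L2 was -0.0017 in H146. The treated library of high MT-RNR2 alone gave BAK1 -0.035, BBC3 1.13 and BID -0.037 in H82, and those of low MT-RNR2 alone BCL2L1 0.17, BCL2L2 -0.14 and BCL2L11 0.047 in H146. Leaving out 1 library gave -0.24 to 0.34 for BCL2L1, -0.93 to 0.12 for BBC3 and -0.33 to 0.029 for BAD in H82, and -0.11 to 0.037 for BCL2L1, -0.040 to 0.070 for BCL2L2, -0.094 to 0.32 for BMF and -0.30 to 0.076 for BCL2L10 in H146. The difference between the lines turned for BAK1 (-0.56 with the median of ratios, -0.13 on quantile normalization, -0.040 to 0.39 with a library left out), BID (-0.72, -0.53 and -0.15 to 0.25) and BCL2L1 (0.12 without mitochondrial genes, -0.38 to 0.20 with a library left out).

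No pairing by replicate number was seen: deviations of same-numbered libraries correlated at 0.03, 0.01 and -0.04 in H82 and at -0.11, -0.06 and 0.01 in H146. With 3 or 4 libraries a group these values cannot tell whether same-numbered libraries shared a culture or batch. With the replicate block, which drops treated replicate 4 of H146, members called stayed at 2 lower and 1 higher in H82 and 3 lower and 1 higher in H146, and 3 in place of 4 differed between the lines, where BID was -0.057 and MCL1 was lost (0.81, adjusted p = 0.056). With the block 8625 genes were lower and 2333 higher in H82, and 2377 and 4749 in H146. Depth is unknown, so precision rests on 3 or 4 libraries a group.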
